A study of Schizosaccharomyces pombe with 97 samples.

Results

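The genes described here encode subunits of RNA polymerases I, II and III of the fission yeast Schizosaccharomyces pombe. They were chosen by name alone, as every gene whose name is rpa, rpb or rpc followed by a digit, and 30 of the 7014 genes in the count table met that rule. Of these, 29 were protein-coding subunits, and all 29 passed the filter on low counts. The remaining match was an antisense transcript of rpa43 (SPNCRNA.1655), which is kept apart from the subunits. By polymerase, 5 subunits belong to RNA polymerase I (rpa2, rpa12, rpa34, rpa43 and rpa49), 7 to RNA polymerase II (rpb1, rpb2, rpb3, rpb4, rpb7, rpb9 and rpb11) and 10 to RNA polymerase III (rpc1, rpc2, rpc11, rpc17, rpc25, rpc31, rpc34, rpc37, rpc53 and rpc82). Another 2 are shared by RNA polymerases I and III (rpc19 and rpc40), and 5 are common to all 3 enzymes (rpb5, rpb6, rpb8, rpb10 and rpc10). The rule leaves out the largest subunit of RNA polymerase I, nuc1, and its small subunit ker1, whose values are given with the other transcription genes.

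RNA was sequenced from cultures of 6 deletion strains and of the wild type at entry into and during quiescence, the resting state (G0) that fission yeast enters when nitrogen runs out. The mutants were hht2∆ (a histone H3 gene), pht1∆ (the histone variant H2A.Z), iec1∆ and ies2∆ (subunits of the Ino80 chromatin remodelling complex), arp42∆ (an actin-related protein of chromatin remodellers) and asp1∆ (an inositol pyrophosphate kinase). The wild type was smt0, a heterothallic strain that cannot switch mating type, and every mutant carried the same smt0 allele, was prototrophic and was derived by crossing from a deletion library with a kanMX4 marker. Cells grew in minimal medium (T0, before the shift) and were then kept in the same medium without nitrogen for 24 h (T1D), 1 week (T1W) or 2 weeks (T2W). There were 3 cultures (A, B and C) at each point and 81 libraries in all. The study's methods describe taking the T0 sample from each culture and starving the rest of it. No label says which samples share a culture, and the main fits did not pair them. No ies2∆ RNA was analysed at T2W. The 9 ies2∆ libraries formed a second batch, so that in ies2∆ the deletion and the batch cannot be told apart. By the study's flow cytometry, starved cultures of every mutant but hht2∆ held a smaller share of cells with G0 DNA content than smt0. Viability after 2 weeks was lower in every mutant than in smt0, least so in hht2∆. The comparisons of mutants with smt0 are not adjusted for either. Each mutant is a single deletion genotype with no second allele. The study describes the cultures as biological triplicates. P-values and standard errors (SE) rest on a spread between cultures estimated from all 81 libraries together, and not from the groups compared alone.

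Eukaryotic cells divide transcription between RNA polymerase I, which makes the large ribosomal RNA precursor, RNA polymerase II, which makes messenger RNA, and RNA polymerase III, which makes transfer RNA and 5S ribosomal RNA. Each enzyme is built on a core of related subunits, of which the largest and the second largest form the catalytic centre, and a few small subunits are common to all of them. RNA polymerases I and III serve ribosome and tRNA production, which growing yeast cells maintain at high rates and which nutrient starvation is known to reduce. The transcripts measured here are the messenger RNAs of the subunits, all made by RNA polymerase II, and they do not report the activity of any of the enzymes.

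The stretch before the annotated start of the second largest subunit gene of each polymerase is shown because these genes are counterparts with different behaviour in the data that follow. The sequences run 5′ to 3′ on the coding strand, come from the RefSeq annotation of ASM294v3 and end before the start given by either that annotation or the deposited one. Capitals mark the TATA box letters TATAAA. The stretches lie at chrII:2007836-2008085 on the plus strand for rpa2, at chrI:850386-850590 on the plus strand for rpb2 and at chrI:2269607-2269800 on the minus strand for rpc2.
rpa2: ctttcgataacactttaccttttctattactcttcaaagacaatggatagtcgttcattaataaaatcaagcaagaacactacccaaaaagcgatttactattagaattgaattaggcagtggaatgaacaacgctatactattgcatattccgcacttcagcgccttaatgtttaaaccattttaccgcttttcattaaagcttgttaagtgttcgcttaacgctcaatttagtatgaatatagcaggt
rpb2: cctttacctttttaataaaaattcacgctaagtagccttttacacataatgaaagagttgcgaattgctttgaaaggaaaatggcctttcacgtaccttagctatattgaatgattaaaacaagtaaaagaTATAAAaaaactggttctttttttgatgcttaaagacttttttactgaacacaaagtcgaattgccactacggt
rpc2: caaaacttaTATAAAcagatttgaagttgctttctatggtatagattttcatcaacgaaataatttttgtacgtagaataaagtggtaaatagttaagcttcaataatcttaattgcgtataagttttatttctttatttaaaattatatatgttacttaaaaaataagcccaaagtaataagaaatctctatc
No TATAAA stood in the rpa2 stretch, and 1 stood in each of the other two, beginning 74 bases before the end of the rpb2 stretch and 185 bases before the end of the rpc2 stretch. All 29 subunits were matched to RefSeq by identifier. In windows from 250 bases before to 50 bases after the start, TATAAA on either strand occurred for 0 of 5 RNA polymerase I genes, 6 of 7 RNA polymerase II genes, 8 of 10 RNA polymerase III genes, 1 of the 2 genes shared by RNA polymerases I and III and 1 of 5 common subunit genes. Among all 5112 protein-coding windows 48.1% held it. GATGAG, the core of the PAC box known from polymerase I and III subunit genes of budding yeast, occurred for 4 of 29 subunits (rpa12, rpb11, rpc11 and rpc34; 13.8%) and in 8.59% of all windows, and the longer GCGATGAG, which contains it, for 0 of 29 and in 0.196% of all windows. CAGTCACA, the HomolD box of fission yeast ribosomal protein genes, occurred for 1 of 29, rpa49, and in 2.68% of all windows. Each count describes letters in a window and not a bound factor.

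The libraries held between 1980570 and 18992894 gene counts (median 5149311), the 29 subunits took between 0.221% and 0.566% of them, and the smallest count of any subunit in any library was 17. Counts of the deleted genes were 0.198% to 0.922% of the smt0 mean in 7 hht2∆ libraries but 14.6% to 36.6% in 5 (culture A at every time and culture C at T2W). They were 3.37% to 8.92% in asp1∆, and 0.923% to 37.3% in 8 ies2∆ libraries but 217% in ies2∆ T0 culture C. In arp42∆ (9.63% to 96.4%), pht1∆ (38.2% to 118%) and iec1∆ (52.6% to 145%) reads remained in many libraries. The counts cover whole exon models, of which 33.2% (pht1) to 89.3% (asp1) is coding, and the sources do not give the stretch removed, so for these 3 strains the counts do not check the label. The 6 hht2∆ and ies2∆ libraries that stand apart stayed in the fits, and counts that moved without them are given beside the result. The value of 37.3% belonged to ies2∆ T1D culture B. It is above the hht2∆ libraries set apart, yet this culture is not among the 6. Exons of 13 subunits overlap a gene on the opposite strand, for 9 of them over more than 50% of their length (rpb7, rpc17, rpa49, rpb9, rpa34, rpa43, rpc37, rpb8 and rpb3). The sources do not state whether counting used strand. For the 4 subunits whose exons a gene on the other strand covers fully, that gene had fewer counts than the subunit in 81 of 81 libraries for rpa49, 48 for rpb9, 0 for rpb7 and 0 for rpc17.

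In growing wild type cells (smt0, T0) most subunit transcripts were above the median protein-coding gene. Levels are compared between genes as CPM (the count scaled to a common library size after TMM) per kilobase of exon, where the median of all 5083 protein-coding genes tested was 41.0. The 5 common subunits had the highest median, 181, led by rpb6 at 241 and rpb10 at 206. The median was 132 for the 2 subunits shared by RNA polymerases I and III, 111 for RNA polymerase I and 111 for RNA polymerase II. RNA polymerase III subunits had a median of 41.1, close to that of all genes, and a range of 22.8 (rpc17) to 93.4 (rpc11). The 4 lowest subunits were rpb3 at 21.4, rpc17, rpc53 at 23.4 and rpc37 at 24.5, at percentiles of 24.6 to 29.1 among protein-coding genes. rpb3 has a gene model of 4022 bases, which is long for a small subunit and lowers its level per kilobase. RNA polymerase I transcripts were between 62.5 (rpa12) and 190.1 (rpa43) and RNA polymerase II transcripts between 21.4 (rpb3) and 142 (rpb4), so the ranges of the 3 enzymes overlap.

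How far the subunit transcripts fell with the transcriptome as a whole was read against the External RNA Controls Consortium (ERCC) spike-ins, synthetic RNAs that the study added in proportion to cell number. The study's methods word this as the vegetative cells of each culture, so the cell count used for starved samples is not certain. On this spike-in scale a value is relative to the ERCC counts of its library. The library level is the total count of the genes tested, multiplied by its TMM factor, over the ERCC size, set to the smt0 T0 mean. Because RNA came from whole cultures, fewer cells with RNA and less RNA per cell cannot be told apart. The median of the 29 subunits in smt0 was 97.9%, 96.8% and 103% of its T0 mean in the T0 cultures A, B and C, 57.3%, 25.8% and 10.6% at T1D, 2.91%, 1.36% and 0.314% after 1 week, and 2.04%, 3.16% and 0.628% after 2 weeks. The library level over all genes was 85.1%, 40.8% and 19.0% in the same T1D cultures, 5.03%, 2.41% and 0.548% at T1W and 3.84%, 5.13% and 1.14% at T2W. In each of these 9 starved cultures the subunit median lay below the level of its own library. The 3 cultures of a time point differed several-fold from each other, and at T1D 26 of 29 subunits had all starved cultures below all T0 cultures (49.5% of all genes), the others being rpb1, rpc11 and rpc37.

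**Figure D1:**
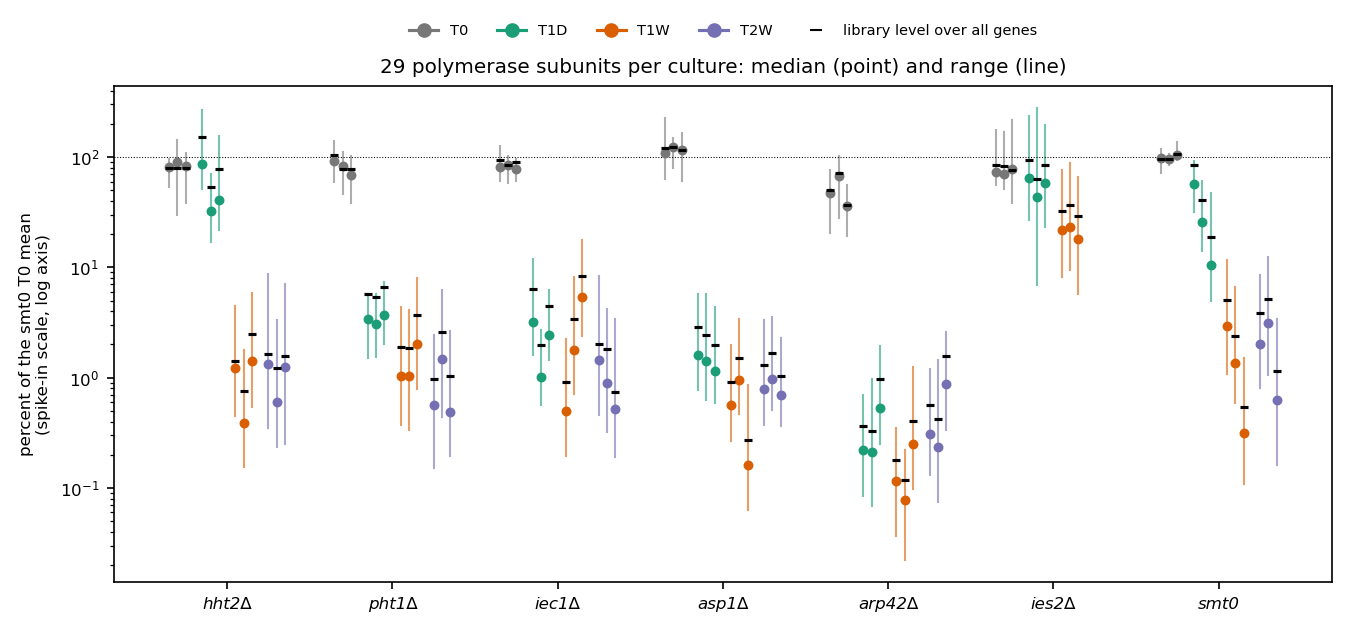
Percent of the smt0 T0 mean on the spike-in scale (log axis) for the 29 subunits in each culture, by strain and time. Points are medians over the subunits, vertical lines run from the lowest to the highest subunit, and black dashes are the library level over all genes. In smt0 the median lies below 4% at T1W and T2W, and the ies2∆ values hold after the second batch was shifted to meet the first at T0.

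In the model across all genes, 14 of 29 subunits were lower in smt0 at T1D than at T0 on the spike-in scale, where 21.4% of all genes tested were lower (edgeR's quasi-likelihood test, Benjamini-Hochberg adjustment, threshold 0.05). They were 4 of 5 RNA polymerase I subunits, 2 of 7 of RNA polymerase II, 4 of 10 of RNA polymerase III, 1 of the 2 shared by I and III and 3 of the 5 common subunits. The median log2 fold change was -2.17 for RNA polymerase I, -1.51 for RNA polymerase II and -1.57 for RNA polymerase III, against -1.05 over all genes. At T1W, 29 of 29 subunits were lower, with 97.3% of all genes, and at T2W again 29 of 29, with 96.1% of all genes. The medians at T1W were -6.39 for RNA polymerase I, -5.34 for RNA polymerase II and -5.73 for RNA polymerase III, against -5.29 over all genes. At T2W they were -6.21 for RNA polymerase I, -4.93 for RNA polymerase II, -5.52 for RNA polymerase III and -4.94 over all genes. The T1D count rests on single libraries: it was 0 without T1D culture C, 1 without T1D culture B, 23 without T1D culture A and 8 without T0 culture C, and it was 8 in a fit of only these groups.

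To compare the subunits with the other genes of the same cells, the shift that all genes share was removed by scaling each library to its gene counts with trimmed mean of M-values (TMM) factors, which is called the relative scale. In smt0 at T1D, 20 of 29 subunits differed from T0 on this scale, where 53.9% of all genes did. Lower calls made up 19 of them, with 26.9% of all genes lower, and the only higher call was rpb1, with 27.1% of all genes higher. At T1W, 22 subunits were called (59.9% of all genes), 18 lower (30.5%) and 4 higher (29.3%). At T2W, 21 were called (63.7% of all genes), 17 lower (32.6%) and 4 higher (31%). The share of subunits called lower was 65.5%, 62.1% and 58.6% at the 3 times, and the share called higher 3.45%, 13.8% and 13.8%. By culture, 19 of 29 subunits had all 3 starved cultures below all 3 T0 cultures at T1D (31.3% of all genes), 19 at T1W (35.4%) and 19 at T2W (35.9%). All starved cultures were above T0 for 1 subunit at T1D (30.5% of all genes), 6 at T1W (33.6%) and 5 at T2W (32.4%). The 1 at T1D was rpc2, which was not called, whereas the cultures of rpb1 overlapped T0.

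RNA polymerase I subunits fell together. All 5 were lower at T1D and T1W and 4 of 5 at T2W, none was higher at any time, and their median log2 fold changes were -1.11, -1.09 and -1.34 at T1D, T1W and T2W, against 0.02, -0.02 and -0.03 over all genes. rpa2 (SPBP23A10.07, chromosome II, 2008119 to 2011955, plus strand, ASM294v2), the second largest subunit, had 481, 488 and 446 CPM in smt0 T0 cultures A, B and C, 264, 217 and 263 CPM at T1D, 254, 267 and 252 CPM at T1W and 222, 204 and 171 CPM at T2W. No starved culture reached a T0 culture, and the log2 fold changes were -0.93 ± 0.19, -0.87 ± 0.19 and -1.24 ± 0.20 (SE, n = 3 cultures per time), with the largest edgeR adjusted p at 9.44e-05. rpa43 (SPBC3B9.07c, chromosome II, 4000467 to 4001584, minus strand), a stalk subunit that contacts the initiation factor Rrn3, had 166, 182 and 192 CPM at T0, 81.9, 80.4 and 60.1 CPM at T1D, 64.8, 61.6 and 57.8 CPM at T1W and 69.9, 64.7 and 62.7 CPM at T2W. Every starved culture lay below every T0 culture, with log2 fold changes of -1.27, -1.55 and -1.45. The 2 members of the heterodimer that resembles the factor TFIIF, rpa34 and rpa49, were at -1.11 and -1.11 at T1D, and rpa12, which is involved in RNA cleavage, at -0.63, -1.51 and -1.78 over the 3 times. The exception to the calls was rpa34 at T2W (-0.68, edgeR adjusted p = 0.0795). The antisense transcript of rpa43 was at -0.26, -0.38 and -0.21 and was not called at any time.

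RNA polymerase II subunits went in both directions, and their medians stayed nearer to those of all genes, at -0.385, -0.04 and -0.01. rpb1 (SPBC28F2.12, chromosome II, 1591120 to 1596744, plus strand), the largest subunit, which carries the C-terminal repeat domain, was the one subunit of any polymerase called higher at all 3 times. It had 427, 467 and 514 CPM at T0, 509, 626 and 1182 CPM at T1D, 1087, 1297 and 1307 CPM at T1W and 1041, 1152 and 1109 CPM at T2W. At T1D culture C was far above the other two and culture A lay just below the highest T0 culture, and the log2 fold change was 0.72 ± 0.22 (SE, n = 3, edgeR adjusted p = 0.00485). Without T1D culture C it was 0.27 (edgeR adjusted p = 0.317), so the T1D call rests on that culture, while at T1W and T2W all cultures were above all T0 cultures, with 1.39 ± 0.22 and 1.23 ± 0.22. On the spike-in scale rpb1 was at -0.63 at T1D (edgeR adjusted p = 0.461), the smallest decrease of the 29 subunits.

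rpb2 (SPAC23G3.01, chromosome I, 850591 to 854385, plus strand), the second largest subunit, had 459.8, 448 and 450.3 CPM at T0, 455, 427 and 598 CPM at T1D, 576, 634 and 628 CPM at T1W and 521, 564 and 439 CPM at T2W. It was called only at T1W, at 0.44 ± 0.15 (SE, n = 3, edgeR adjusted p = 0.0123), where all 3 cultures were above T0. The assembly subunit rpb11 was the RNA polymerase II subunit with the largest decrease, at -1.25, -1.76 and -2.16 over the 3 times, and its partner rpb3 was at -0.67, -0.40 and -0.28, all of them called. Of the stalk pair, rpb7 fell at every time (-0.69, -0.89 and -0.91), while rpb4 was at -0.21, -0.04 and 0.15 and was not called. rpb9, which is known for its part in transcript cleavage and fidelity, was lower only at T1D (-0.39) and was at 0.00 and -0.01 later. Of the 7 subunits 4 were lower at T1D and 3 at T1W and T2W, and 1, 2 and 1 were higher.

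RNA polymerase III subunits also differed among themselves. Their medians were -0.48, -0.52 and -0.63, with 5 of 10 lower at each time and 0, 2 and 2 higher. rpc1 (SPBC651.08c, chromosome II, 1249831 to 1254496, minus strand), the largest subunit, had 178, 182 and 177 CPM at T0, 186, 165 and 241 CPM at T1D, 274, 252 and 238 CPM at T1W and 255, 262 and 224 CPM at T2W. It was at 0.14 ± 0.15 at T1D (edgeR adjusted p = 0.471) and rose at T1W (0.51 ± 0.15) and T2W (0.46 ± 0.15), where all cultures were above T0. rpc2 (SPAC4G9.08c, chromosome I, 2265987 to 2269606, minus strand), the second largest, had 131, 124 and 119 CPM at T0, 134, 135 and 213 CPM at T1D, 197, 191 and 196 CPM at T1W and 141, 205 and 208 CPM at T2W. Its log2 fold changes of 0.36, 0.64 and 0.57 did not pass the test (edgeR adjusted p = 0.363, 0.0836 and 0.126), although no starved culture overlapped T0. In the pair that resembles TFIIF, rpc37 was at 0.15 at T1D and rose at T1W (0.54) and T2W (0.79), whereas its partner rpc53 fell at every time (-1.14, -1.05 and -0.91). The initiation subunits rpc31 (-0.72, -0.77 and -1.21) and rpc34 (-0.96, -0.89 and -1.25) and the stalk subunit rpc25 (-1.23, -1.04 and -1.0) were lower at all times. The third initiation subunit, rpc82, was lower only at T1D (-0.54), the cleavage subunit rpc11 only at T1W and T2W (-1.01 and -1.47), and the stalk subunit rpc17 was never called (-0.38, 0.08 and -0.19).

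Among the subunits that more than one polymerase uses were those that fell furthest. rpb6 (SPCC1020.04c, chromosome III, 783023 to 784077, plus strand), common to all 3 enzymes, had 206, 202 and 198 CPM at T0, 75.0, 69.7 and 55.2 CPM at T1D, 43.6, 50.02 and 39.8 CPM at T1W and 46.4, 46.3 and 38.9 CPM at T2W. Its decrease at T1D, -1.59 ± 0.19 (SE, n = 3, edgeR adjusted p = 3.85e-10), was the largest of the 29, and it stood at -2.19 and -2.20 later. rpc40 (SPBC1289.07c, chromosome II, 4395913 to 4397207, minus strand), a subunit of RNA polymerases I and III that corresponds to rpb3, had 188, 203 and 208 CPM at T0, 85.4, 80.3 and 63.5 CPM at T1D, 51.6, 56.1 and 49.0 CPM at T1W and 42.3, 41.6 and 28.4 CPM at T2W. It fell by 1.38, 1.94 and 2.41 on the log2 scale, while its partner rpc19 was at -0.22, -0.11 and -0.18 and was not called. Of the common subunits rpb5 (-0.67, -0.98 and -1.0), rpb8 (-0.92, -1.50 and -1.59) and rpb10 (-0.51, -0.73 and -0.79) fell at every time. rpc10 (SPBC19C2.03, chromosome II, 1675592 to 1676188, plus strand), the common subunit known as Rpb12 in budding yeast, had 23.2, 26.2 and 22.3 CPM at T0, 21.2, 35.9 and 27.3 CPM at T1D, 29.6, 35.4 and 52.2 CPM at T1W and 29.8, 41.9 and 71.1 CPM at T2W. Its cultures overlapped those of T0 at T1D and lay above them afterwards, and it was called only at T2W (0.98 ± 0.34, edgeR adjusted p = 0.00924).

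**Figure D2:**
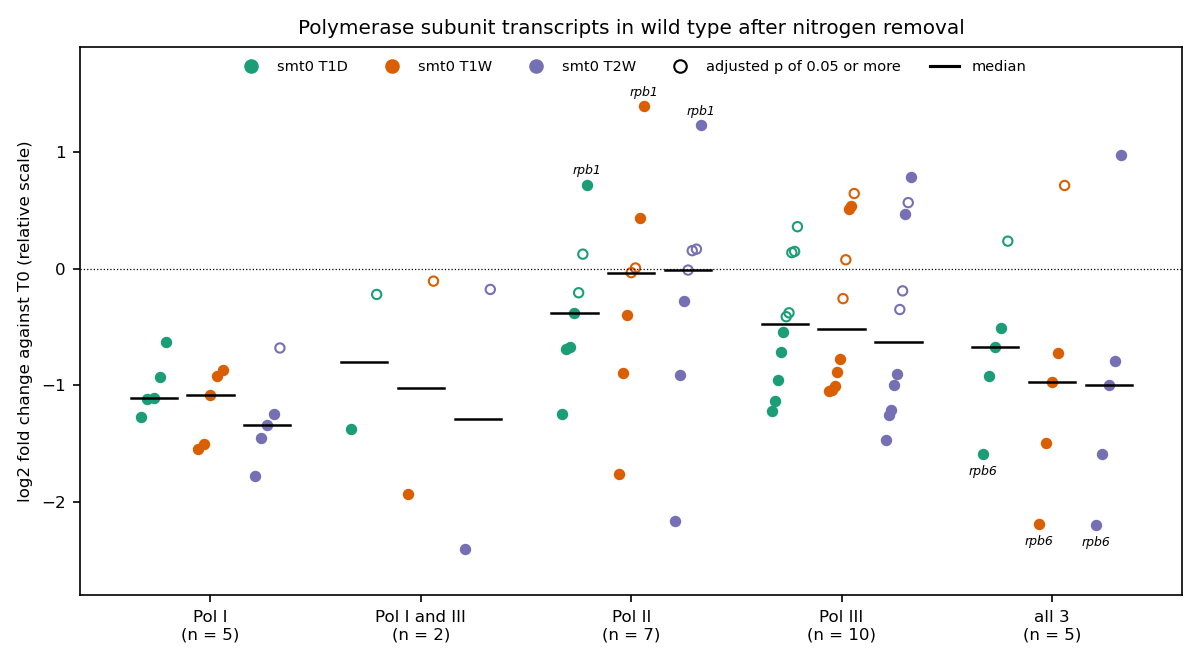
Log2 fold change of each subunit in smt0 at T1D, T1W and T2W against T0 on the relative scale, by polymerase. Filled points had an adjusted p below 0.05, open points did not, and bars are medians. All 5 RNA polymerase I subunits lie below 0 at every time, RNA polymerase II and III subunits lie on both sides, rpb1 is the highest at T1D and rpb6 the lowest.

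**Figure D3:**
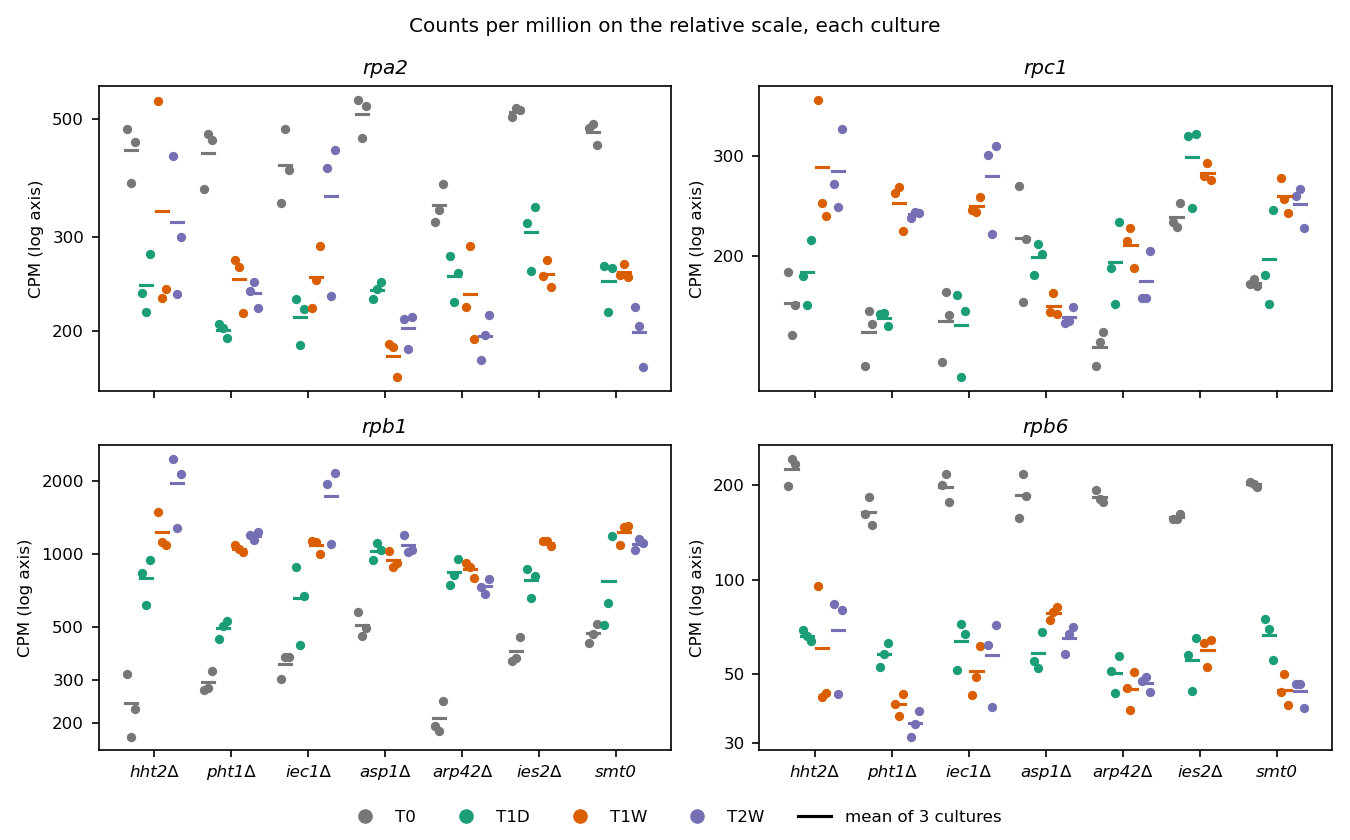
CPM on the relative scale (log axis) of rpa2, rpc1, rpb1 and rpb6 in each culture by strain and time, with the mean of the 3 cultures as a bar. In smt0 every starved culture of rpa2 and rpb6 lies below every T0 culture, while the T1W and T2W cultures of rpb1 and rpc1 lie above.

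The median change over genes was higher in bins of longer exon length. Over all protein-coding genes in smt0 at T1D, the median log2 fold change on the relative scale was -0.20 for exon lengths up to 1000 bases, -0.18 from 1000 to 2000, 0.01 from 2000 to 3000, 0.16 from 3000 to 4000 and 0.33 above 4000 bases. The subunits had medians of -0.63 (15 genes), -1.03 (6), -0.88 (2), 0.12 (3) and 0.14 (3) in the same bins. rpa2 has an exon length of 3837 bases, close to the 3757 bases of rpb2 and the 3620 bases of rpc2, and at -0.93 it lay far below the median of its bin. Over all protein-coding genes the medians from 3000 to 4000 bases were 0.28 at T1W and 0.28 at T2W. Above 4000 bases they were 0.55 and 0.50. With 4616 bases, rpc1 at 0.51 and 0.46 lay close to the median of its bin at these times. In the same bin rpb1 lay above the median and rpb3 below it. With 3757 bases, rpb2 at 0.44 at T1W was above the 0.28 of its bin. The part of length in the differences between subunits was not tested.

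RNA polymerase I had the lowest median of the 3 enzymes in every strain when each was compared with its own T0. Summed over the 7 strains, 130 of 203 subunit tests were lower at T1D on the relative scale (28.5% of all gene tests), 124 of 203 at T1W (31.4%) and 107 of 174 at T2W (32.4%). Higher calls numbered 11 at T1D (27.9% of all gene tests), 28 at T1W (29.3%) and 24 at T2W (31.3%). RNA polymerase I subunits were lower in 33 of 35 tests at T1D, 33 of 35 at T1W and 27 of 30 at T2W, and were higher in none. RNA polymerase II subunits were lower in 28 of 49, 20 of 49 and 20 of 42 tests and higher in 9, 14 and 10. RNA polymerase III subunits were lower in 33 of 70, 37 of 70 and 29 of 60 tests and higher in 2, 11 and 10. Subunits shared by RNA polymerases I and III were lower in 11 of 14, 8 of 14 and 9 of 12 tests and higher in 0. Those common to all 3 were lower in 25 of 35, 26 of 35 and 22 of 30 and higher in 0, 3 and 4. At T1D the medians of these 2 classes ran from -1.35 (hht2∆) to -0.75 (pht1∆) and from -1.36 (arp42∆) to -0.45 (iec1∆). The median of RNA polymerase I was below that of RNA polymerase II, of RNA polymerase III and of all genes in 20 of 20 comparisons of a strain with its T0, whereas the median of RNA polymerase III was below that of RNA polymerase II in 13 of 20. Across strains the RNA polymerase I median ran from -1.37 (hht2∆) to -0.92 (ies2∆) at T1D, from -1.51 (asp1∆) to -1.09 (smt0) at T1W and from -1.34 (smt0) to -0.70 (iec1∆) at T2W. In iec1∆ at T2W cultures A and C stood apart from B, with rpa2 at 404, 232 and 436 CPM in A, B and C. The RNA polymerase II median ran from -0.62 (iec1∆) to 0.22 (ies2∆) at T1D. The comparisons of 1 strain share its T0 cultures and are not independent of each other.

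**Figure D4:**
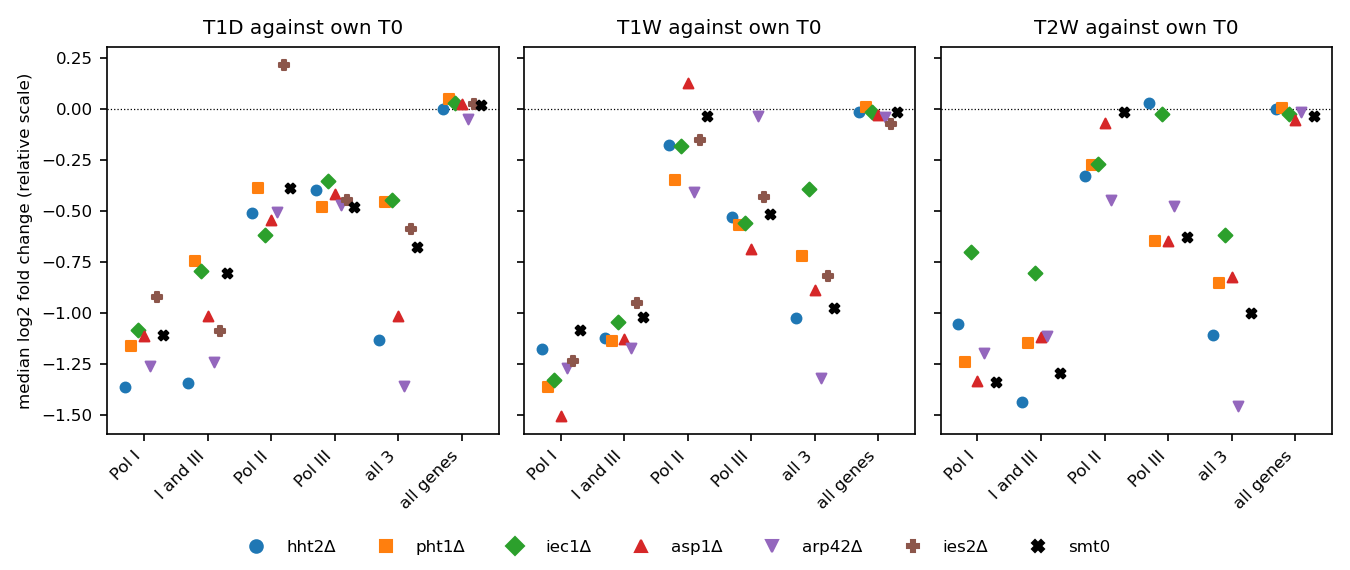
Median log2 fold change on the relative scale of the subunits of each polymerase, and of all genes, at T1D, T1W and T2W against the T0 of the same strain. Each symbol is 1 strain, with no ies2∆ value at T2W. The RNA polymerase I symbols lie below those of RNA polymerase II, RNA polymerase III and all genes in every strain and time.

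Some subunits were called in the same direction in every strain. At T1D, 11 of 29 subunits were lower in all 7 strains (14.6% of all genes): rpa2, rpa12, rpa43 and rpa49 of RNA polymerase I, rpb3, rpb9 and rpb11 of RNA polymerase II, rpc25 of RNA polymerase III, and the shared subunits rpc40, rpb6 and rpb8. At T1W, 9 were lower in all 7 strains (14.1% of all genes; rpa34, rpa43, rpa49, rpb6, rpb8, rpc25, rpc31, rpc40 and rpc53), and at T2W 9 were lower in all 6 (15.4% of all genes; rpa12, rpa43, rpa49, rpb5, rpb6, rpb8, rpb11, rpc31 and rpc40). rpb1 was the only subunit higher in every strain, as were 10.4% of all genes at T1D, 10.5% at T1W and 11.9% at T2W, with log2 fold changes of 0.72 to 2.01 at T1D, 0.89 to 2.36 at T1W and 1.09 to 3.03 at T2W. The value of 3.03 was that of hht2∆, with rpb1 at 2469, 1284.5 and 2135 CPM in T2W cultures A, B and C. Cultures A and C are among the 6 libraries that hold many reads of the deleted gene. rpb2 was positive in every strain at every time but was called in 2 of 7 strains at T1D, 5 of 7 at T1W and 4 of 6 at T2W. rpc1 was higher in 2 of 7 strains at T1D and 5 of 7 at T1W, where it was lower in 1, asp1∆. rpc37 was higher in 5 of 7 strains at T1W and lower in 1, again asp1∆. Without the 6 libraries that hold many reads of the deleted gene, the summed lower calls were 131, 129 and 111.

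Whether the mutants differed from wild type was asked first on the spike-in scale at T1D. All 29 subunits were lower than in smt0 in pht1∆ (93.8% of all genes tested), iec1∆ (93.7%), asp1∆ (96.4%) and arp42∆ (98.4%). The subunit medians were 3.42%, 3.07% and 3.73% of the smt0 T0 mean in pht1∆ cultures A, B and C, 3.17%, 1.01% and 2.44% in iec1∆, 1.61%, 1.41% and 1.14% in asp1∆ and 0.221%, 0.212% and 0.528% in arp42∆, against 57.3%, 25.8% and 10.6% in smt0. All 12 of these mutant cultures lay below the lowest smt0 culture, and arp42∆ lay below the others. The library level over all genes fell alongside, to 5.40% to 6.58% for pht1∆, 1.99% to 6.37% for iec1∆, 1.97% to 2.87% for asp1∆ and 0.329% to 0.969% for arp42∆, against 19.0% to 85.1% in smt0. The median log2 fold changes of the subunits against smt0 were -3.14, -3.72, -4.52 and -6.59 in these mutants. The share of all genes called was nearly as high, and the shared smt0 cultures enter every one of these comparisons.

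In hht2∆ the subunit medians were 86.4%, 32.3% and 40.9% at T1D, which overlapped smt0, and 0 of 29 subunits were lower (edgeR, 0.0151% of all genes lower; 1 subunit had an unadjusted p under 0.05, and DESeq2 called 0 lower). In ies2∆ they were 64.2%, 43.9% and 58.0%, and 0 of 29 were lower (edgeR, 0.908% of all genes; 5 had an unadjusted p under 0.05, and DESeq2 called 0 lower). The 3 ies2∆ subunits called higher were rpc2, rpa34 and rpc53 (5.84% of all genes). The ies2∆ values hold only after the second batch was shifted by 3.70 on the log2 scale to meet the first batch at T0. Without that shift 0 subunits were higher and 28 were lower, and the 3 higher calls became 0 without smt0 T1D culture B or C, 1 without ies2∆ culture B and 6 without smt0 T1D culture A. The study reported most genes as lower in ies2∆ than in wild type at T1D, which the fit with the shift did not show. Its methods describe normalizing the second batch at T0, and how the later samples were treated is not stated.

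**Figure D5:**
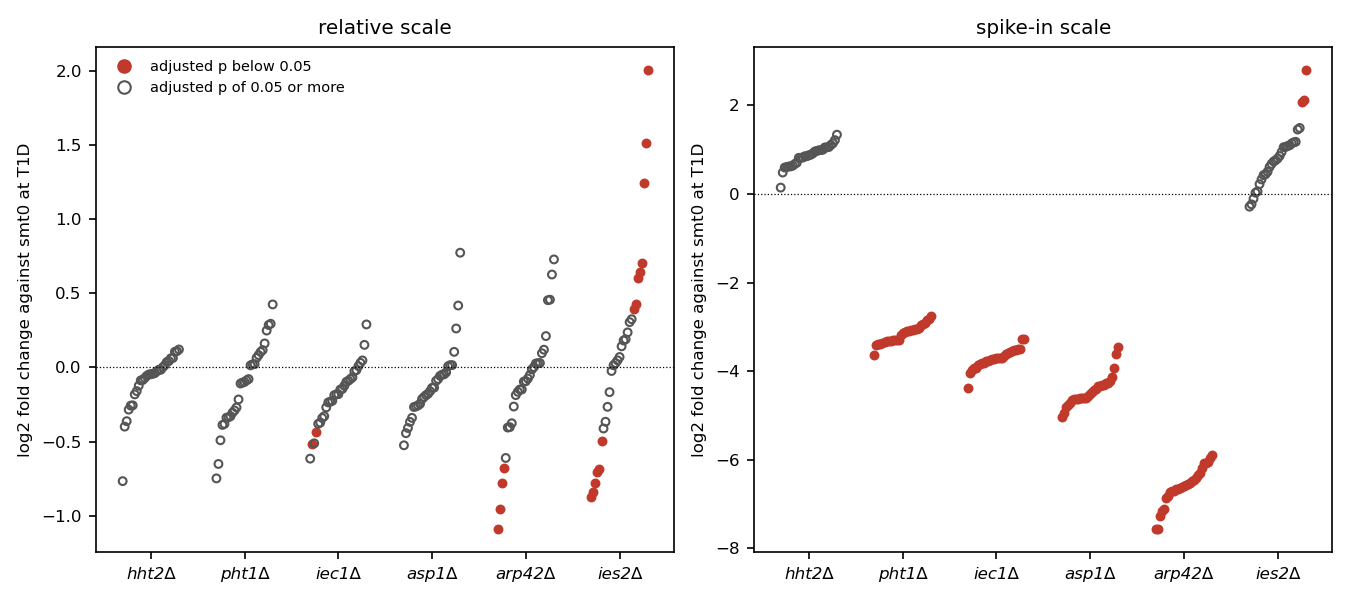
Log2 fold change of the 29 subunits in each mutant against smt0 at T1D, on the relative scale (left) and the spike-in scale (right). Filled points had an adjusted p below 0.05. On the spike-in scale all subunits of pht1∆, iec1∆, asp1∆ and arp42∆ are lower, while on the relative scale most points lie near 0 except in ies2∆. The ies2∆ points on the spike-in scale hold after the second batch was shifted to meet the first at T0.

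With the shared shift removed, few subunits differed between mutants and smt0 at T1D. On the relative scale edgeR called 0 of 29 in hht2∆ (0.409% of all genes tested), 0 in pht1∆ (7.7%), 0 in asp1∆ (12%), 2 in iec1∆ (15.5%), 4 in arp42∆ (32.2%) and 14 in ies2∆ (43%). Where edgeR called none, 3, 6 and 2 subunits had an unadjusted p under 0.05 in hht2∆, pht1∆ and asp1∆, and DESeq2 called 0, 0 and 1. In hht2∆ the subunit with the smallest adjusted p was rpb9, with 23.6, 25.9 and 23.7 CPM against 27.7, 32.8 and 33.9 CPM in smt0 (-0.36, edgeR adjusted p = 0.543). In pht1∆ it was rpb1, with 444, 503 and 527 CPM against 509, 626 and 1182 CPM in smt0 (-0.65, edgeR adjusted p = 0.0543), the lowest smt0 culture lying among those of pht1∆. In asp1∆ it was rpc53, with 28.1, 25.0 and 29.1 CPM against 14.7, 13.0 and 21.5 CPM in smt0, groups that did not overlap and yet missed the threshold (0.77, edgeR adjusted p = 0.0596).

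The 2 subunits called in iec1∆ at T1D were rpb9, with 24.1, 20.4 and 24.9 CPM against 27.7, 32.8 and 33.9 CPM in smt0 (-0.44 ± 0.15, SE, n = 3, edgeR adjusted p = 0.0336), and rpc37 (-0.51 ± 0.19). Neither call was made with DESeq2, with TMM factors from protein-coding genes alone, or in a fit of only the groups compared. In arp42∆ the 4 called subunits were all lower: rpb8, rpc11 (-1.09), rpa12 (-0.95) and rpc40 (-0.68), and with DESeq2 the split was 4 lower and 1 higher. rpb8, a subunit common to all 3 enzymes, had 52.3, 51.0 and 59.0 CPM in arp42∆ against 101, 109.9 and 66.2 CPM in smt0, with no overlap (-0.78 ± 0.21, edgeR adjusted p = 0.00284). Without the 6 libraries that hold many reads of the deleted gene the counts became 7 in arp42∆, 5 in iec1∆, 4 in pht1∆ and 1 in asp1∆. Leaving out 1 culture gave 2 in arp42∆ without smt0 culture A and 7 without arp42∆ culture C, 0 in iec1∆ without its culture B or C and 1 without smt0 culture A or C, 2 in pht1∆ without smt0 culture A and 1 without B, and 2 in asp1∆ without smt0 culture C.

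In ies2∆ at T1D 8 subunits were higher (21.5% of all genes) and 6 lower (21.5%) than in smt0 on the relative scale, 14 of 29 in all, near the share of all genes called. The largest difference was that of rpc53 (SPCC18.07, chromosome III, 1969022 to 1970523, plus strand), with 53.4, 88.8 and 51.8 CPM in ies2∆ against 14.7, 13.0 and 21.5 CPM in smt0 (2.00 ± 0.28, SE, n = 3, edgeR adjusted p = 6.81e-08). It was already higher in ies2∆ at T0, with 73.6, 72.1 and 99.4 CPM against 36.9, 37.8 and 30.8 CPM in smt0 (1.21). The other higher subunits were rpa34 (1.51), rpc2 (1.24), rpc37 (0.70), rpb7 (0.64), rpc1 (0.60), rpc82 (0.42) and rpb3 (0.40). The lower ones were rpc11 (-0.88), rpa12 (-0.84), rpb11 (-0.78), rpc19 (-0.70), rpb8 (-0.69) and rpc40 (-0.50). ies2∆ culture B stood apart from A and C. It had rpc2 at 538 CPM against 309 and 288 CPM. Its rpa34 was at 177 CPM against 40.02 and 34.7 CPM, where smt0 had 28.4, 27.4 and 31.7 CPM. Counts of the deleted gene in ies2∆ T1D cultures A, B and C were 10.1%, 37.3% and 6.24% of the smt0 mean. Without culture B rpa34 was at 0.36 (edgeR adjusted p = 0.373), the calls of rpb7, rpc82, rpc11, rpa12, rpb11, rpb8 and rpc40 were lost as well, and the count was 6, while without smt0 T1D culture A or B it was 9, and in a fit of only these groups it was 2.

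Before starvation few subunit differences from smt0 were called in the fit of all libraries. Summed over the 6 mutants at T0, edgeR called 0 of 174 subunit tests on the spike-in scale (0.615% of all gene tests), where 5 had an unadjusted p under 0.05, all in arp42∆, and DESeq2 called 1. That count was 63 in fits of only the groups compared and 29 without the ies2∆ shift. On the relative scale 12 of 174 were called (11.3%), without smt0 T0 culture B or C only 3, and in fits of only the groups compared 25. The subunit called in most mutants was rpb1, with 318, 175 and 227 CPM in hht2∆ (-0.97), 274, 278 and 328 CPM in pht1∆ (-0.68) and 194, 185 and 247 CPM in arp42∆ (-1.17 ± 0.22, edgeR adjusted p = 8.98e-05), against 427, 467 and 514 CPM in smt0. All 9 of these mutant cultures lay below all smt0 cultures, which the 3 comparisons share. rpb2 was also lower in pht1∆ (-0.46) and arp42∆ (-0.42), and rpb5 was lower in iec1∆ (-0.54) and higher in arp42∆ (0.52). The other 5 calls were in ies2∆: rpb11 (-0.66), rpb4 (-0.47), rpc37 (0.53), rpc2 (0.92) and rpc53.

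A test of the difference between a mutant and smt0 in the change over the first day asked whether the response itself differed. It called 4 of 174 subunit tests (6.84% of all gene tests), 3 in arp42∆ and 1 in ies2∆. rpb1 rose further in arp42∆, with 747, 817 and 949 CPM at T1D against 194, 185 and 247 CPM at T0, than in smt0, with 509, 626 and 1182 CPM at T1D against 427, 467 and 514 CPM at T0. The difference was 1.29 ± 0.31 (SE, edgeR adjusted p = 0.00164), the arp42∆ cultures lying below those of smt0 at T0 and among them at T1D. The other 3 were rpb8 (-0.82) and rpb5 (-0.69) in arp42∆ and rpb7 (0.97) in ies2∆. The count ran from 1 without smt0 T1D culture B to 5, was 2 without smt0 T0 A, smt0 T1D A, arp42∆ T0 A or arp42∆ T1D B, and was 7 without the 6 libraries that hold many reads of the deleted gene.

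After 1 week the arp42∆ cultures were lower than smt0 on the spike-in scale, while those of asp1∆ overlapped smt0. Summed over the 6 mutants, 75 of 174 subunit tests were called at T1W (40.7% of all gene tests). All 29 subunits were lower in arp42∆ (92.4% of all genes) and 17 in asp1∆ (50%). In ies2∆ all 29 were higher (97.1%), which without the batch shift became 0. The study reported few genes as different between ies2∆ and wild type at T1W. The subunit medians were 0.116%, 0.0780% and 0.249% in arp42∆ and 0.565%, 0.958% and 0.163% in asp1∆, against 2.91%, 1.36% and 0.314% in smt0. The arp42∆ cultures were all below smt0, while 2 of the 3 asp1∆ cultures lay above smt0 culture C. The asp1∆ count was 0 without smt0 culture A, 1 without asp1∆ culture C and 11 without asp1∆ culture A, and 0 in a fit of only the groups compared.

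On the relative scale 22 of 174 subunit tests were called at T1W (14.6% of all gene tests), 17 of them in asp1∆ (55.3% of all genes), with 8 higher (27.1% of all genes) and 9 lower (28.2%), shares near those of all genes. The split was 9 higher and 3 lower with TMM factors from protein-coding genes, which moved the median of all genes by 0.193, and 8 higher and 5 lower with DESeq2. The common subunit rpb10 differed most in asp1∆ (1.58 ± 0.15, SE, n = 3, edgeR adjusted p = 1.08e-12). Higher subunits also included rpb11 (1.05), rpc11 (0.96), rpa12 (0.83) and rpb6 (0.82). Lower subunits were rpc37 (-1.18), rpc2 (-0.92), rpc17 (-0.76), rpc1 (-0.64), rpc82 (-0.63), rpb9, rpa2, rpa49 and rpc19.

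At T2W, 40 of 145 subunit tests were called on the spike-in scale over 5 mutants (29% of all gene tests), with 28 subunits lower in arp42∆ (79.3% of all genes) and 9 in asp1∆ (35.7%). The summed count was 2 without smt0 T2W culture B and 78 without smt0 T2W culture C, 25 and 12 without arp42∆ culture A or B, and 1 in a fit of only the groups compared, so it rests on single cultures. The arp42∆ count was 2 without smt0 culture B, 13 without arp42∆ culture A and 0 without arp42∆ culture B. The asp1∆ count was 0 without smt0 culture B or asp1∆ culture C, 2 without asp1∆ culture A, 5 without smt0 culture A and 19 without smt0 culture C.

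On the relative scale 44 of 145 subunit tests were called at T2W (33.6% of all gene tests), 15 in asp1∆ (52.6% of all genes), 15 in hht2∆ (47%) and 9 in iec1∆ (34.1%). In asp1∆ 8 were higher (26.9% of all genes) and 7 lower (25.7%), in hht2∆ 13 higher (25.3%) and 2 lower (21.7%), and in iec1∆ 6 higher (17%) and 3 lower (17.1%). In asp1∆ rpb10 (1.17), rpb11 (1.15) and rpc34 (1.04) were the highest and rpc37 (-1.11), rpc17 (-0.98) and rpc1 (-0.66) the lowest. The hht2∆ and iec1∆ calls came from cultures A and C, which stood apart from culture B in both strains. rpc2 had 26.4, 136 and 26.6 CPM in hht2∆ cultures A, B and C and 31.6, 134 and 32.8 CPM in iec1∆, against 141, 205 and 208 CPM in smt0. rpc53 had 45.6, 15.6 and 44.0 CPM in hht2∆ and 48.3, 15.98 and 45.8 CPM in iec1∆, against 18.6, 18.6 and 19.3 CPM in smt0. Culture B lay closer to smt0 than A and C did for both genes and in both strains. In hht2∆ these are 2 of the libraries that hold many reads of the deleted gene, and without them and the other 4, which leaves 1 hht2∆ culture at T2W, the hht2∆ count was 0 and the iec1∆ count 14. Leaving out 1 culture gave 5 to 19 calls in hht2∆, with 5 without culture A, and 4 to 15 in iec1∆, with 4 without culture C and 15 without culture B, and a fit of only the groups compared gave 0 in both. For iec1∆ the split was 9 higher and 2 lower with TMM factors from protein-coding genes.

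The other genes of the transcription machinery give the setting for these changes, from lists of known factors described by counts and medians in smt0 at T1D on the relative scale. In that comparison 27.1% of all genes were higher and 26.9% lower. Of the subunits that the name rule leaves out, nuc1, the largest subunit of RNA polymerase I, had 314, 319.8 and 429 CPM at T1D against 674, 619 and 639 CPM at T0 (-0.86 ± 0.25, SE, n = 3, edgeR adjusted p = 0.0024). ker1, a small RNA polymerase I subunit, was at -2.29 (edgeR adjusted p = 6.65e-11), further down than any of the 29, and the mitochondrial polymerase rpo41 was at -0.27. Both RNA polymerase I subunits outside the rule fell along with the 5 inside it. Of 8 RNA polymerase I initiation factors 1 was higher (rrn7, 0.87) and 2 lower, with hmo1, a high mobility group protein of ribosomal DNA, at -0.83 and a median of -0.21. Of 9 RNA polymerase III factors tested 3 were higher and 1 lower, with a median of 0.18. bdp1, a subunit of the initiation factor TFIIIB, was at 1.87 ± 0.17 (edgeR adjusted p = 9.02e-14), and at 2.28 and 2.44 at T1W and T2W. maf1, the repressor of RNA polymerase III, was at 0.31 (edgeR adjusted p = 0.135), and sla1, the La protein that binds new RNA polymerase III transcripts, at -0.66 (edgeR adjusted p = 0.0702).

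Among genes that work with RNA polymerase II calls went in both directions, as they did over all genes (27.1% higher and 26.9% lower). Of 19 general initiation factors 7 were higher and 4 lower (median 0.05), from tfb5 of TFIIH at 1.2 to tfg3 at -0.87. Of 13 TFIID subunits tested, out of 17 listed, 2 were higher and 3 lower (median -0.19), from taf4 at 0.61 to taf6 at -0.72. Of 16 Mediator subunits tested, out of 30 listed names, 2 were higher and 1 lower (median 0.05), from med15 at 2.05 ± 0.19 (edgeR adjusted p = 1.02e-13) to med7 at -0.47 (edgeR adjusted p = 0.052). Of 19 elongation factors tested 2 were higher and 6 lower (median -0.01), from ell1 at 1.2 to pob3, a subunit of the histone chaperone FACT, at -1.07. None of these lists had a median as low as the 5 RNA polymerase I subunits, whose median was -1.11, and the lists were described rather than tested.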

How the data were processed

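The deposited table held whole-number counts per gene, which the authors made from stranded, ribosomal RNA-depleted libraries with bcl2fastq 2.20.0.422, STAR 2.7.9a and featureCounts 1.5.1 on exons of ASM294v2 with the 92 ERCC sequences added. The strand setting is not given in the sources used here. The table covers 81 libraries in 27 groups of 3 cultures, and 16 ChIP samples of the series were not analysed here.

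Counts were fitted once across all 81 libraries with edgeR 4.0.16 in R 4.3.3 (glmQLFit and glmQLFTest, 1 mean per group, no block), for the 6608 genes with a CPM over 1 in at least 3 libraries. On the spike-in scale, libraries were sized by their ERCC total multiplied by a TMM factor computed from the ERCC counts, with all ies2∆ libraries shifted by 3.70 log2 so that their mean level at T0 met that of the other strains. For the relative scale it was the gene total times the TMM factor of the gene counts. P-values were adjusted by Benjamini-Hochberg over all genes within each comparison at 0.05, and the SE is the log2 fold change divided by the square root of F. The scripts were tested on simulated counts.

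Values per culture are given for the largest and second largest subunit of each polymerase, the 3 highest and 3 lowest subunits in smt0 at T1D, and the subunit with the smallest adjusted p in each mutant at T1D. Other genes were named after their values were seen, except for the highest and lowest of each list and maf1. Members and lists were chosen with earlier results of these data known. Alternatives were DESeq2 1.42.0, TMM factors of protein-coding genes, ERCC totals without TMM, no filter, only the groups compared, no ies2∆ shift, a replicate block and leaving out 1 library. A fit without the 6 libraries with many reads of the deleted gene and the length bins were added after seeing the data. Promoters were read from RefSeq ASM294v3, which shared at least 1 gene end with the deposited coordinates for 99.5% of 5106 protein-coding genes. The planned comparison of subunit proteins was not made.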

Additional observations from a re-analysis of the deposited data

Results flagged for a closer look

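In 4 cases the change of a subunit over the first day without nitrogen differed between a mutant and smt0 on the relative scale, by a test of the difference itself (edgeR's quasi-likelihood test, Benjamini-Hochberg adjustment). rpb1, the largest subunit of RNA polymerase II, differed by 1.29 in arp42∆ (log2, adjusted p = 0.00164), and this call was kept whichever single library was left out. rpb8, common to all 3 polymerases, differed by -0.82 in arp42∆ (adjusted p = 0.0297), with 52.3, 51.0 and 59.0 CPM at T1D against 191, 185 and 169 CPM at T0, whereas smt0 had 101, 109.9 and 66.2 CPM at T1D against 157, 180.0 and 192 CPM at T0. rpb5, also common to all 3, differed by -0.69 in arp42∆ (adjusted p = 0.0235), with 70.7, 59.9 and 57.3 CPM at T1D against 170.0, 159.9 and 152 CPM at T0, whereas smt0 had 72.8, 80.9 and 55.7 CPM at T1D against 121, 110.4 and 104 CPM at T0. rpb7, a stalk subunit of RNA polymerase II, differed by 0.97 in ies2∆ (adjusted p = 0.0296), with 83.8, 146 and 81.1 CPM at T1D against 79.0, 85.2 and 90.9 CPM at T0, whereas smt0 had 84.5, 62.9 and 49.7 CPM at T1D against 119, 97.7 and 103 CPM at T0. The calls of rpb5, rpb8 and rpb7 were each lost in some fits with 1 library left out.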

How the results depend on the processing

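Of 287 recomputed subunit counts under other settings 252 stayed within 1.5 times the reported count, as did 560 of 606 with 1 library left out. Of 1176 recomputed calls of named genes 1083 kept direction and call, 93 kept direction only and 0 reversed.

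On the spike-in scale a fit of only the groups compared gave 8 lower subunits for smt0 at T1D, 63 calls for the mutants at T0, 1 at T2W, 0 lower for asp1∆ at T1W, 1 for asp1∆ and 0 for arp42∆ at T2W, and 1 higher for ies2∆ at T1D. On the relative scale it gave 0 higher for smt0 at T1D, 0 for iec1∆, 1 for asp1∆ and 2 for ies2∆ at T1D, 25 for the mutants at T0, 18 at T2W, and 0 for hht2∆ and 0 for iec1∆ at T2W. Without the ies2∆ shift the counts were 28 lower and 0 higher for ies2∆ at T1D, 29 for the mutants at T0, 46 at T1W, and 0 higher for ies2∆ at T1W. DESeq2 gave 0 for iec1∆ and 1 for asp1∆ at T1D on the relative scale and 1 for the mutants at T0 on the spike-in scale. TMM factors of protein-coding genes gave 0 for iec1∆ and 1 for asp1∆ at T1D, and no filter gave 1 for iec1∆. Without the 6 libraries that hold many reads of the deleted gene the relative counts were 4 for pht1∆, 5 for iec1∆, 1 for asp1∆ and 7 for arp42∆ at T1D, 7 for the interaction, 0 for hht2∆ and 14 for iec1∆ at T2W. The causes were not tested.

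The letters of the cultures paired the samples by no label, and in 1 of 43 comparisons (hht2∆ against smt0 at T2W) every pair of equal letters correlated above 0.1. With the letter as a replicate block the counts for smt0 were 13, 29 and 29 lower on the spike-in scale and 20, 22 and 21 called on the relative scale at T1D, T1W and T2W, and 1 for pht1∆ and 1 for iec1∆ at T1D; the other counts stayed within 1.5 times.

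Leaving out 1 library gave the following lowest and highest counts. For smt0 on the spike-in scale they were 0 to 23 at T1D and 29 to 29 at T1W and T2W, and on the relative scale 17 to 19, 21 to 22 and 19 to 21 called, 17 to 18, 17 to 18 and 16 to 17 lower, and 0 to 1, 3 to 4 and 3 to 4 higher. Summed over the strains they were 127 to 131, 120 to 127 and 102 to 108 lower and 10 to 12, 26 to 29 and 21 to 26 higher. For the mutants at T1D they were 29 to 29 lower for pht1∆, iec1∆, asp1∆ and arp42∆, 0 to 0 for hht2∆ and ies2∆ and 0 to 6 higher for ies2∆ on the spike-in scale, and 0 to 0 for hht2∆, 0 to 2 for pht1∆, 0 to 3 for iec1∆, 0 to 2 for asp1∆, 2 to 7 for arp42∆ and 6 to 14 for ies2∆ on the relative scale. The sums over mutants were 0 to 0 at T0, 58 to 79 at T1W and 2 to 78 at T2W on the spike-in scale, 3 to 12, 16 to 22 and 33 to 50 on the relative scale, and 1 to 5 for the interaction. At T1W the spike-in counts were 0 to 21 for asp1∆, 29 to 29 for arp42∆ and 29 to 29 higher for ies2∆, and at T2W 0 to 19 for asp1∆ and 0 to 29 for arp42∆. The relative counts were 13 to 17 at T1W and 11 to 14 at T2W for asp1∆, 5 to 19 for hht2∆ and 4 to 15 for iec1∆ at T2W.

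With a lowest library of 1980570 counts and a lowest subunit count of 17, depth limits small differences most in the shallowest libraries.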
